A study of Mus musculus with 18 samples.

Results

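Gene expression in mouse embryonic stem cells (ESCs) was compared with that in mouse trophoblast stem cells (TSCs), both grown in normoxia. The comparison takes the 4 normoxic libraries of these cell types, 2 biological replicates each, out of 18 bulk RNA-seq libraries in the series. The other libraries are ESCs and TSCs after 2 and 7 days of hypoxia and the same conditions in XEN cells, a line of extra-embryonic endoderm. No agent was added to the cells beyond their culture media.

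The ESCs are wild-type E14 cells, a male mouse line, kept without feeders on gelatin in a serum medium with LIF, the cytokine that holds ESCs undifferentiated. The labels name no line for the TSCs, which came from another laboratory and were kept on feeder cells in a different serum medium with FGF4 and heparin, the growth factor and cofactor on which TSCs depend. Each cell type is thus a single line, and cell type, genetic background, sex, medium and feeders cannot be told apart here. Total RNA from bulk cultures was sequenced, so a gene that is lower may be so in fewer cells or at less RNA per cell, and these cannot be told apart either.

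ESCs and TSCs model the lineages that separate at the blastocyst stage. ESCs stand for the epiblast, which forms the embryo, and their identity rests on a network of transcription factors around Pou5f1, Sox2 and Nanog, fed by LIF through STAT3. TSCs stand for the trophectoderm, which forms the placenta, and depend on Cdx2, Eomes, Elf5, Gata3 and Tfap2c, with FGF signalling through ERK in place of LIF.

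The lineages are also known to differ in DNA methylation, which is set mainly at CpG pairs. The 300 bases around the start of 4 defining genes are therefore shown, 250 before the start and 50 after it, from RefSeq on build GRCm38.p6, 5′ to 3′ on the strand of the gene and with each CpG in capitals. Nanog (chr6:122707239-122707538, plus strand) and Zfp42 (chr8:43306960-43307259, minus strand) are genes of ESCs. Elf5 (chr2:103411848-103412147, plus strand) and Cdx2 (chr5:147307200-147307499, minus strand) are genes of TSCs.
Nanog: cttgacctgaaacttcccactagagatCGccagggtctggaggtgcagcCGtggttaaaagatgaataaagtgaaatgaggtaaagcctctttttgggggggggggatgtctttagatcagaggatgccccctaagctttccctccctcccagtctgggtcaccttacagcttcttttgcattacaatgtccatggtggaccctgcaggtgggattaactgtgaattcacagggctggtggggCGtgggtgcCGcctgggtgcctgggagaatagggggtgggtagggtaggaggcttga
Zfp42: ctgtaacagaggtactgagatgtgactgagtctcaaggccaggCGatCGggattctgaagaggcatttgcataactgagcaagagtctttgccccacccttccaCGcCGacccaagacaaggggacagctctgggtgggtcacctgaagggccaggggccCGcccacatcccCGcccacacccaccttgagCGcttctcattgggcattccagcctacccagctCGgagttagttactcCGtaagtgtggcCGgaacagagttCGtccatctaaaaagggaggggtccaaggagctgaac
Elf5: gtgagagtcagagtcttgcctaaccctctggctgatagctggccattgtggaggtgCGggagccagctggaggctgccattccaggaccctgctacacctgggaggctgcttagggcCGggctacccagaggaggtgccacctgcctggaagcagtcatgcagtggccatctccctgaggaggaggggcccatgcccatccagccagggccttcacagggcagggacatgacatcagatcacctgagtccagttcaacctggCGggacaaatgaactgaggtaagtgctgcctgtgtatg
Cdx2: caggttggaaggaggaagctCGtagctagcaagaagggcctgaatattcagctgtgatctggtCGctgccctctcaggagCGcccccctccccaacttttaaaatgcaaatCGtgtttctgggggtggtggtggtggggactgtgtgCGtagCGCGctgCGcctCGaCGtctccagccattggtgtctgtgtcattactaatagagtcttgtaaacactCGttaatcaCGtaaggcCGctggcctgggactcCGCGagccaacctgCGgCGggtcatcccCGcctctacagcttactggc
The windows hold 4 CpG pairs in Nanog, 11 in Zfp42, 3 in Elf5 and 18 in Cdx2, against a median of 7 over the promoters of 27025 genes. The octamer ATTTGCAT, the sequence that POU factors such as Pou5f1 bind, was searched on both strands and occurs in the Zfp42 and Cdx2 windows and in 1.75% of all promoters. No exact match is in the Nanog or Elf5 window. Variants were not searched, and the Nanog window holds ttttgcat, which differs from the octamer by a single base. Methylation and binding were not measured. A comparison of CpG content between called genes was void, since only 79.7% of the genes called in either direction had a promoter window, under the 80% required.

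The authors deposited TPM, a within-library proportion of transcripts scaled to a fixed sum, with ESCs and TSCs in tables of their own. There were 13578 genes for ESCs and 13518 for TSCs, 12497 of them shared, and these took 98.7% to 99.6% of the TPM of each normoxic library. Each column was rescaled to a sum of 1000000 over these shared genes. The tables were normalized separately by the authors, so every level set across them below rests on this rescaling. As a check, whole reads were recovered from the TPM, which do not depend on the scale of either table. They came to 37760283 and 50296395 in the ESC libraries and to 43303183 and 44073144 in the TSC libraries.

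Of the shared genes, 11781 passed a filter on low values and were tested with limma, and 716 did not pass it. Of those tested, 3120 (26.5%) were higher in ESCs and 3898 (33.1%) were higher in TSCs. Calls required a fold change over 1.5 and an adjusted p of 0.1 or less, the thresholds of the study. The voom test on recovered reads called 3518 genes higher in ESCs and 3720 higher in TSCs. In each called gene the libraries of the cell types did not overlap, as was so for 84.6% of all genes tested.

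Large differences were more frequent toward TSCs. A fold change over 4 was found in 522 genes higher in ESCs and in 1284 higher in TSCs, one over 16 in 79 and 274, and one over 64 in 14 and 53. All genes tested had a median log2 fold change of -0.05, where a positive value is higher in ESCs. Throughout, levels are rescaled TPM in replicates 1 and 2 of each cell type, and log2 fold changes are of TPM plus 0.5 and are given with their standard error and the limma adjusted p.

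The replicates were closer in ESCs than in TSCs. Across genes, the log2 levels of the replicates correlated with r = 0.996 in ESCs and 0.975 in TSCs, and 354 and 2023 genes differed more than 1.5-fold between replicates. Of the genes called higher in TSCs, 369 (9.47%) had TSC replicates over 2-fold apart, in 288 of them with replicate 1 above replicate 2. Among genes called higher in ESCs, 7 had ESC replicates that far apart.

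TSC replicate 1 stood apart in markers of fibroblasts, the usual feeder cells. The summed level of the 21 fibroblast markers tested was 5048 in TSC replicate 1, 796 in TSC replicate 2 and 68.4 and 68.3 in ESCs. Without TSC replicate 1 the comparison called 3358 genes higher in ESCs and 3838 in TSCs, and 2944 and 3642 of these were also called with it. Some lists below are given with and without this library. The counts of large fold changes above, other lists and most single genes are given only with it.

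**Figure D1:**
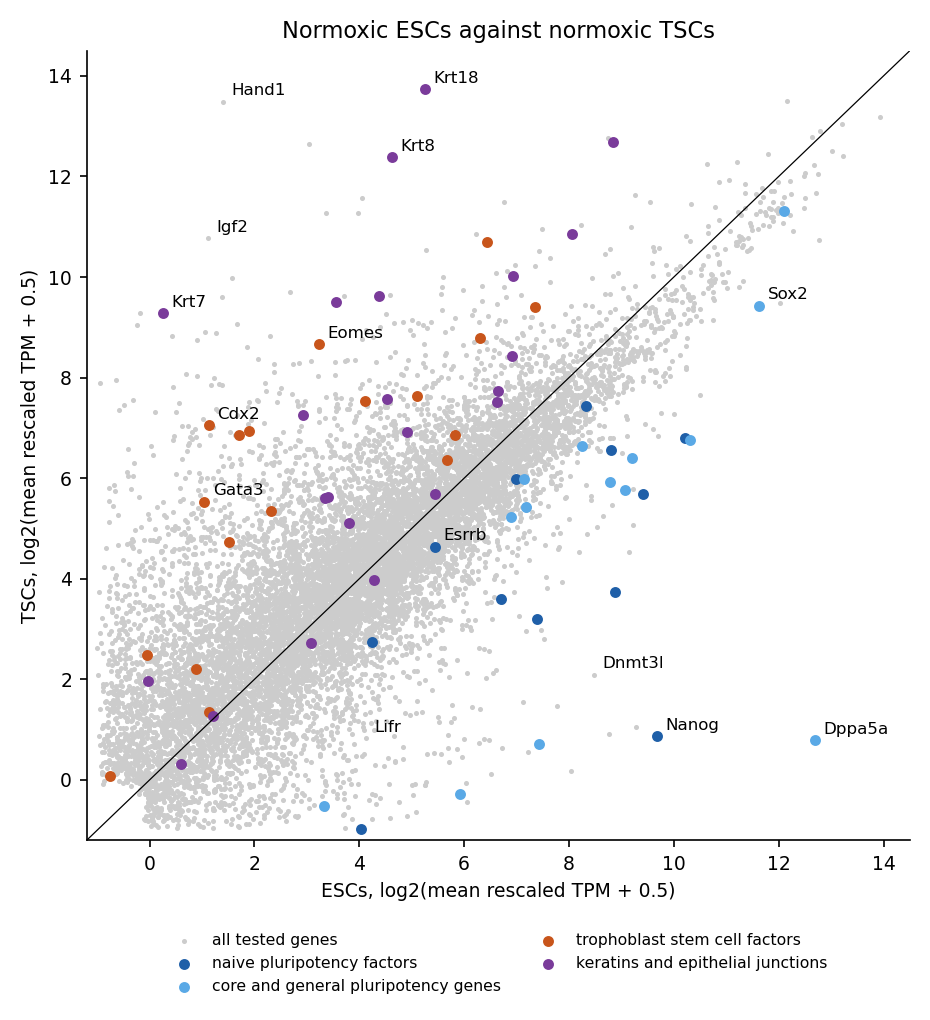
Mean level of each of the 11781 tested genes in normoxic TSCs (vertical) against normoxic ESCs (horizontal), as log2 of rescaled TPM plus 0.5, with 4 gene lists in colour and the line of equal level. The pluripotency genes lie below the line and the trophoblast stem cell factors and most keratins and junction genes lie above it.

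Genes of the pluripotent state were higher in ESCs without exception. All 12 naive pluripotency factors tested were called higher in ESCs, with a median log2 fold change of 3.25. So were all 14 core and general pluripotency genes, with a median of 2.83, against 26.5% of all genes tested. Without TSC replicate 1 the counts were 12 and 13. A further 10 list members were held by the ESC table alone and none by the TSC table alone.

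The homeobox factor Nanog was at 877 and 764 in ESCs and 1.45 and 1.22 in TSCs (log2 fold change 8.80 ± 0.15, adjusted p = 7.81e-05). The ESC mean was 613 times the TSC mean. Nr0b1, an orphan nuclear receptor that partners Pou5f1, was at 484 and 452 in ESCs and 12.9 and 12.7 in TSCs (log2 fold change 5.14 ± 0.12, adjusted p = 7.81e-05). Nr5a2, a nuclear receptor that activates Pou5f1, was at 17.1 and 14.8 in ESCs and 0.00503 and 0.00927 in TSCs (log2 fold change 5.02 ± 0.19, adjusted p = 0.000111). The TSC levels of Nr5a2 were close to zero, so its fold change depends on the pseudocount. Gbx2, a homeobox factor downstream of LIF, was at 201 and 135 in ESCs and 9.75 and 7.71 in TSCs (log2 fold change 4.17 ± 0.24, adjusted p = 0.000204). Zfp42 (Rex1), a zinc finger protein used as a marker of naive ESCs, was at 700.3 and 661 in ESCs and 53.8 and 48.7 in TSCs (log2 fold change 3.72 ± 0.13, adjusted p = 0.000101). Its TSC level was lower but well above zero in both libraries.

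Several factors of the network were present at considerable levels in TSCs as well. Sox2, which is needed for both the epiblast and the trophoblast stem cell state, was at 2842 and 3481 in ESCs and 665 and 717 in TSCs (log2 fold change 2.19 ± 0.16, adjusted p = 0.000369). Esrrb, a nuclear receptor with a role in both cell types, was at 46.1 and 39.5 in ESCs and 26.3 and 22.5 in TSCs (log2 fold change 0.80 ± 0.16, adjusted p = 0.00907). The libraries of the cell types did not overlap for either gene, as was so for 84.6% of all genes tested. The Esrrb difference was the smallest of the naive list. Klf4, a Krüppel-like factor, was at 444 and 447 in ESCs and 101 and 85.9 in TSCs (log2 fold change 2.25 ± 0.14, adjusted p = 0.000225). Klf5, its relative with a role in both lineages, was at 324 and 316 in ESCs and 169.6 and 174 in TSCs (log2 fold change 0.89 ± 0.12, adjusted p = 0.00198). Of these genes, Sox2 and Klf4 differed by over 4-fold and Esrrb and Klf5 by less than 2-fold.

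Among the core and general pluripotency genes, Dppa5a, an RNA-binding protein of pluripotent cells, had the largest fold change of any gene higher in ESCs at the pseudocount used. It was at 5591 and 7727 in ESCs and 0.527 and 1.94 in TSCs (log2 fold change 12.02 ± 0.43, adjusted p = 0.000105). Fbxo15, a target of Pou5f1 and Sox2, was at 63.6 and 56.8 in ESCs and 0.381 and 0.257 in TSCs (log2 fold change 6.21 ± 0.19, adjusted p = 0.000100). Both genes were below 2 TPM in both TSC libraries. Rex2 had a log2 fold change of 3.82 ± 0.25 at lower levels, 11.2 and 7.801 in ESCs and 0.129 and 0.274 in TSCs. Dppa5a has near-identical copies in the genome, and reads may be shared between them. The smallest difference of the list was that of Utf1, a chromatin protein of pluripotent cells, at 4629 and 4174 in ESCs and 1902 and 3154 in TSCs (log2 fold change 0.84 ± 0.27, adjusted p = 0.0402), and this gene was not called without TSC replicate 1.

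Pou5f1 itself (Oct4; chr17:35506018-35510772 on build GRCm38) was in the ESC table alone, at 1983 and 1975 TPM as deposited. The authors kept a gene in a table only where it passed 0.4 CPM (reads scaled by library size) in at least 2 of the 6 libraries of that cell type, so a gene held by a single table has no level given in the other and was not tested. Also in the ESC table alone were the Nodal coreceptor Tdgf1 at 975 and 848, the TGF-β ligand Gdf3 at 324 and 261, the threonine dehydrogenase gene Tdh at 306 and 301, and Fgf4 at 144 and 128. Lower in the ESC table were Tcl1 at 113 and 112, Dppa3 at 48.6 and 43.2, Otx2 at 16.1 and 25.9, Prdm14 at 17.6 and 15.98 and Spic at 5.63 and 6.35. Fgf4 is the ligand that ESCs make and that TSC medium supplies.

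**Figure D2:**
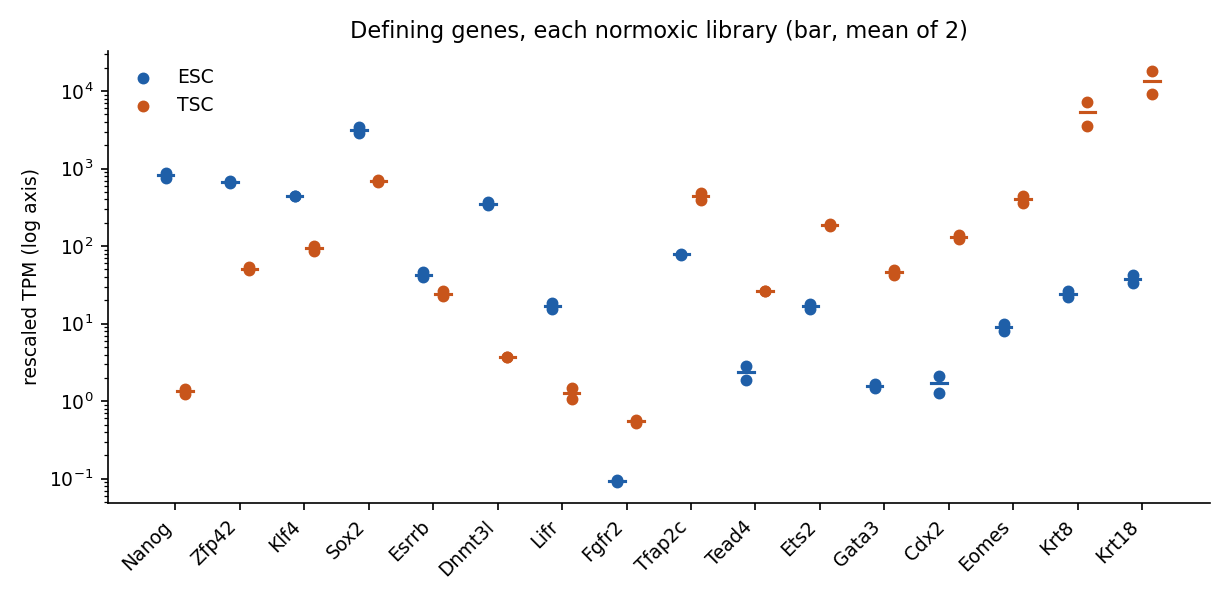
Level of 16 defining genes in each normoxic library, in rescaled TPM on a log axis, with a point for each library and a bar at the mean of the 2 replicates. The ESC mean was 613 times the TSC mean for Nanog and 94.0 times for Dnmt3l, the TSC mean was 78.3 times the ESC mean for Cdx2 and 361 times for Krt18, and Esrrb lay close together.

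Genes of the trophoblast stem cell state, most of them transcription factors, were higher in TSCs. Of 18 such genes tested, 17 (94.4%) were called higher in TSCs and none in ESCs (all genes 33.1% and 26.5%). The median log2 fold change was -2.79. Without TSC replicate 1 the same number was called.

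Cdx2, the caudal homeobox factor of the trophectoderm, was at 1.29 and 2.11 in ESCs and 141 and 125 in TSCs (log2 fold change -5.95 ± 0.23, adjusted p = 0.000111). Eomes, a T-box factor needed for TSCs, was at 8.05 and 9.81 in ESCs and 443 and 365 in TSCs (log2 fold change -5.42 ± 0.17, adjusted p = 0.000101). Both TSC libraries were far above both ESC libraries for either gene. Gata3, a zinc finger factor of the trophectoderm, was at 1.66 and 1.47 in ESCs and 42.1 and 49.5 in TSCs (log2 fold change -4.48 ± 0.18, adjusted p = 0.000111). Gata2, its relative, was at 3.17 and 2.32 in ESCs and 78.9 and 151 in TSCs (log2 fold change -5.09 ± 0.34, adjusted p = 0.000291). Cited1, a transcriptional coactivator of the placenta, was at 3.47 and 2.94 in ESCs and 81.4 and 162 in TSCs (log2 fold change -4.97 ± 0.34, adjusted p = 0.000311). The TSC replicates of Gata2 and Cited1 were further apart than those of Cdx2 and Gata3. Elf5, the Ets factor that marks the trophoblast lineage, was in the TSC table alone, at 60.4 and 56.6 TPM.

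Tfap2c, an AP-2 factor shared with germ cells, was well expressed in ESCs too, at 78.4 and 78.0 in ESCs and 399 and 486 in TSCs (log2 fold change -2.49 ± 0.14, adjusted p = 0.000210). Fgfr2, the receptor through which FGF4 acts on trophoblast, was at 0.0968 and 0.0906 in ESCs and 0.577 and 0.521 in TSCs (log2 fold change -0.82 ± 0.17, adjusted p = 0.00911). The gene is very long, and the authors' TPM divides by the whole gene with its introns, which makes its level per length low in both cell types. The ratio of its means, TSC over ESC, was 5.86 without a pseudocount, and with a pseudocount of 1 its fold change of -0.50 on the log2 scale was no longer called. Tfap2a, another AP-2 factor, did not pass, at 1.76 and 1.61 in ESCs and 1.77 and 2.32 in TSCs (log2 fold change -0.21 ± 0.20).

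Hand1, the bHLH factor of trophoblast giant cells (chr11:57828705-57832818), had the largest fold change of any gene higher in TSCs at the pseudocount used. It was at 2.18 and 2.10 in ESCs and 8716 and 14246 in TSCs (log2 fold change -12.04 ± 0.25, adjusted p = 7.81e-05). It belongs to a list of 25 trophoblast differentiation genes, of which 12 were tested. The rest include 7 with no level given for either cell type, 4 given for TSCs alone and 1 for ESCs alone. Of the 12 tested, 9 (75.0%) were higher in TSCs, 1 (8.33%) was higher in ESCs (all genes 33.1% and 26.5%) and 2 were not called. The median of the list was -3.14. Without TSC replicate 2 it was -2.21, and 9 genes were higher in TSCs and 3 in ESCs.

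Mmp9, the gelatinase of invasive trophoblast, was at 0.681 and 1.03 in ESCs and 521 and 389 in TSCs (log2 fold change -8.39 ± 0.22, adjusted p = 8.62e-05). Dlx3, a homeobox factor of the labyrinth, was at 1.61 and 0.878 in ESCs and 15.8 and 73.9 in TSCs (log2 fold change -4.35 ± 0.72, adjusted p = 0.00449). The TSC replicates of Dlx3 were several-fold apart, with replicate 2 the higher. Syna, the syncytin of the syncytial layer, showed this more, at 2.22 and 2.58 in ESCs and 9.95 and 232 in TSCs (log2 fold change -4.09 ± 1.38, adjusted p = 0.0473). Syna was not called by the voom test on recovered reads (adjusted p = 0.204), nor without either ESC replicate. Ascl2, an imprinted bHLH factor of the spongiotrophoblast, went the other way, at 20.4 and 17.0 in ESCs and 4.38 and 7.404 in TSCs (log2 fold change 1.62 ± 0.28, adjusted p = 0.00514). The placental lactogens and Gcm1 were low. The placental lactogen genes Prl3d1, Prl2c2 and Prl7a1 were in the TSC table alone, at 0.388 and 1.17, 1.46 and 1.03 and 0.129 and 0.596 TPM. Gcm1, the factor of syncytiotrophoblast, was at 1.01 and 1.28 in ESCs and 0.195 and 0.877 in TSCs and was not called. Tpbpa, Tpbpb, Synb, Ctsq and Cts7 were not analysed here.

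Keratins were among the highest levels per gene span in TSCs. Of 23 keratin and epithelial junction genes tested, 18 (78.3%) were higher in TSCs, none in ESCs (all genes 33.1% and 26.5%) and 5 were not called. The median was -2.21. Without TSC replicate 1 the counts were the same, and without TSC replicate 2 they were 17 higher in TSCs and 3 in ESCs, with a median of -1.93. Krt18 was at 42.0 and 33.4 in ESCs and 9184 and 18017 in TSCs (log2 fold change -8.40 ± 0.34, adjusted p = 0.000111). Its partner Krt8 was at 26.4 and 21.8 in ESCs and 3576 and 7156 in TSCs (log2 fold change -7.69 ± 0.34, adjusted p = 0.000111). Krt7, a simple epithelial keratin used as a trophoblast marker, was at 0.832 and 0.542 in ESCs and 519.6 and 731 in TSCs (log2 fold change -9.03 ± 0.23, adjusted p = 8.62e-05), and Krt19 was at 14.3 and 8.16 in ESCs and 314 and 1144 in TSCs (log2 fold change -5.73 ± 0.63, adjusted p = 0.00119). For all 4 keratins replicate 2 was the higher TSC library, the opposite of the fibroblast markers. Krt8 and Krt18 have processed copies in the genome, and reads may be shared with them.

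The adhesion genes that both epithelia share differed less. Epcam, an adhesion molecule of ESCs and trophoblast, was at 101 and 97.8 in ESCs and 182 and 245 in TSCs (log2 fold change -1.08 ± 0.18, adjusted p = 0.00423). Cdh1 (E-cadherin) was at 109.7 and 86.8 in ESCs and 145 and 221 in TSCs (log2 fold change -0.88 ± 0.24, adjusted p = 0.0253). Among the genes of the list that did not pass were Ocln, Grhl2, Ovol2 and Esrp1, with log2 fold changes from 0.055 to 0.39. Vim and Cdh2, which the list holds as mesenchymal counterparts, were called higher in TSCs and were higher in TSC replicate 1, which carries the fibroblast markers. Vim was at 291 and 239 in ESCs and 3222 and 472 in TSCs and Cdh2 was at 0.464 and 0.489 in ESCs and 5.49 and 1.34 in TSCs.

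**Figure D3:**
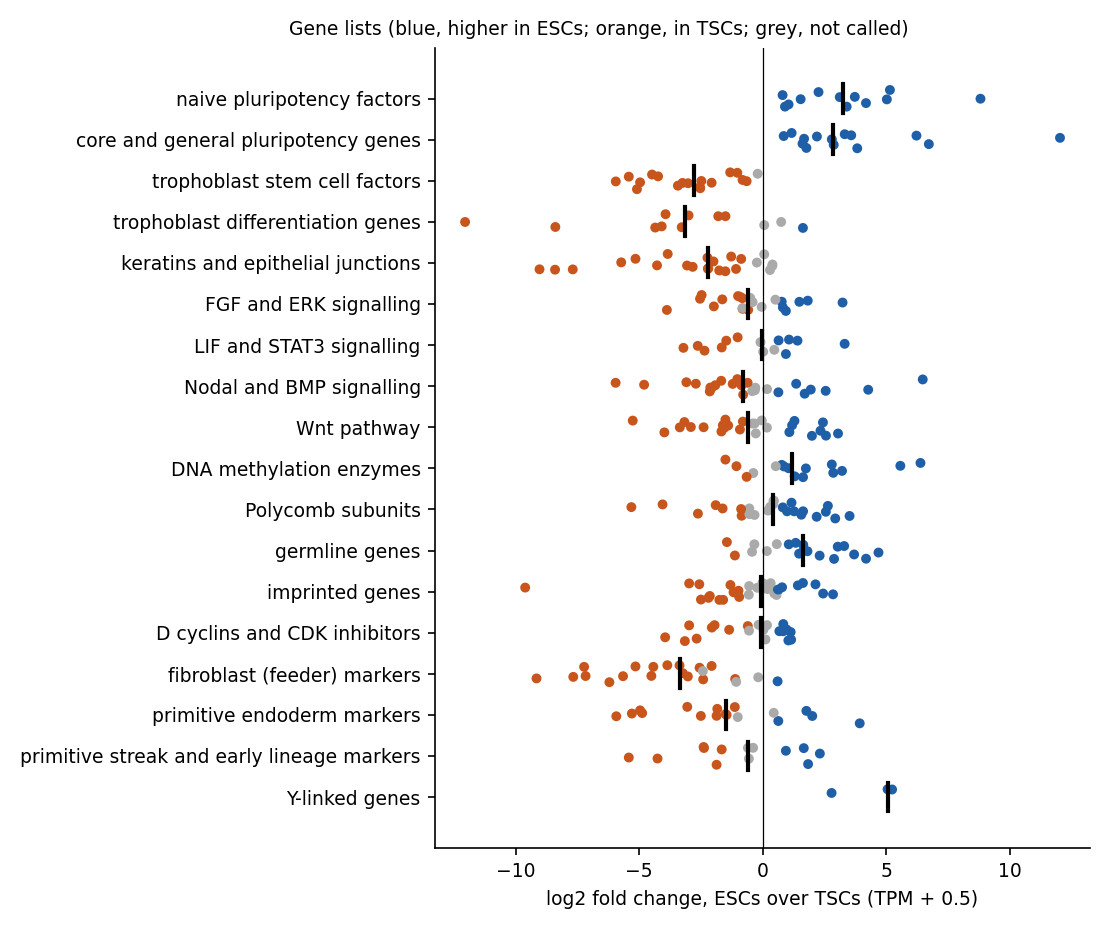
Log2 fold change of each tested member of 18 gene lists, ESCs over TSCs, with a point per gene coloured by its call and a bar at the list median. The medians run from -3.37 for fibroblast markers to 5.04 for Y-linked genes, and the signalling lists hold genes on both sides of 0.

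Genes of FGF and ERK signalling differed in both directions. Of 21 tested, 6 (28.6%) were higher in ESCs, 10 (47.6%) in TSCs and 5 were not called (all genes 26.5% and 33.1%), with a median of -0.59, and of -0.36 without TSC replicate 1. The ligands were on the ESC side, as Fgf4, Fgf17 (76.9 and 70.8 TPM), Fgf15 (20.7 and 23.9) and Fgf8 (0.829 and 1.80) were in the ESC table alone. The receptors were on the TSC side. Fgfr4 was at 1.03 and 0.930 in ESCs and 33.5 and 13.5 in TSCs (log2 fold change -3.88 ± 0.43, adjusted p = 0.00123), Fgfr3 was at 1.17 and 0.768 in ESCs and 8.80 and 7.19 in TSCs (log2 fold change -2.54 ± 0.23, adjusted p = 0.000670), and Fgfr1, the main receptor of ESCs, was at 21.4 and 19.11 in ESCs and 85.8 and 47.8 in TSCs (log2 fold change -1.64 ± 0.29, adjusted p = 0.00577). The heparan sulphate carrier Sdc1 (syndecan 1) was at 19.3 and 15.7 in ESCs and 69.0 and 71.2 in TSCs (log2 fold change -1.98 ± 0.16, adjusted p = 0.000463). Targets of ERK went both ways. Etv5, an Ets factor induced by FGF, was at 124 and 122 in ESCs and 14.3 and 11.3 in TSCs (log2 fold change 3.22 ± 0.16, adjusted p = 0.000151). Spry4, an inhibitor of the pathway, was at 170.0 and 173 in ESCs and 73.2 and 31.9 in TSCs (log2 fold change 1.82 ± 0.38, adjusted p = 0.0102). The phosphatase gene Dusp6 was at 242 and 201 in ESCs and 443 and 195 in TSCs and was not called. The growth factor in the TSC medium is a ligand of this pathway.

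So did genes of LIF and STAT3 signalling, with 5 of 14 (35.7%) higher in ESCs, 6 (42.9%) higher in TSCs (all genes 26.5% and 33.1%), 3 not called and a median of -0.04. Lifr, the receptor of LIF, was at 18.6 and 15.4 in ESCs and 1.07 and 1.47 in TSCs (log2 fold change 3.31 ± 0.22, adjusted p = 0.000281). Lif itself was at 4.82 and 3.71 in ESCs and 51.1 and 36.7 in TSCs (log2 fold change -3.21 ± 0.24, adjusted p = 0.000362). Receptor and ligand thus lay on opposite sides. The shared receptor chain Il6st was at 39.1 and 32.4 in ESCs and 41.0 and 30.3 in TSCs and Stat3 at 35.3 and 32.3 in ESCs and 38.5 and 33.9 in TSCs, and neither was called. The kinases were higher in TSCs, Jak2 at 1.40 and 1.24 in ESCs and 9.45 and 8.23 in TSCs (log2 fold change -2.36 ± 0.19, adjusted p = 0.000484) and Jak1 at 7.62 and 6.40 in ESCs and 25.1 and 21.4 in TSCs (log2 fold change -1.66 ± 0.19, adjusted p = 0.00124). The feedback inhibitors Socs1 and Socs2 differed in opposite directions, Socs1 at 7.98 and 11.6 in ESCs and 58.1 and 66.7 in TSCs (log2 fold change -2.63 ± 0.22, adjusted p = 0.000505) and Socs2 at 32.9 and 32.8 in ESCs and 17.0 and 14.1 in TSCs (log2 fold change 1.06 ± 0.16, adjusted p = 0.00340). Pim3, a kinase induced by STAT3, was at 733 and 766 in ESCs and 304 and 264 in TSCs (log2 fold change 1.40 ± 0.13, adjusted p = 0.000783). LIF was supplied to ESCs only.

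In Nodal and BMP signalling, 7 of 25 genes (28.0%) were higher in ESCs, 14 (56.0%) were higher in TSCs (all genes 26.5% and 33.1%) and 4 were not called, with a median of -0.79. Nodal, its antagonists and its coreceptor were on the ESC side. Nodal was at 153 and 135 in ESCs and 9.34 and 5.27 in TSCs (log2 fold change 4.26 ± 0.28, adjusted p = 0.000273) and its inhibitor Lefty2 at 58.3 and 124 in ESCs and 1.09 and 0.0911 in TSCs (log2 fold change 6.47 ± 0.57, adjusted p = 0.000620), while Lefty1 (74.4 and 165 TPM), Tdgf1 and Gdf3 were in the ESC table alone. The proprotein convertase Furin, which processes Nodal, was at 8.998 and 8.62 in ESCs and 278 and 241 in TSCs (log2 fold change -4.80 ± 0.14, adjusted p = 9.73e-05). On the BMP side, Bmp8b was at 1.44 and 0.886 in ESCs and 104 and 98.4 in TSCs (log2 fold change -5.95 ± 0.22, adjusted p = 0.000106), Bmp8a at 1.76 and 1.08 in ESCs and 14.6 and 16.8 in TSCs (log2 fold change -3.09 ± 0.24, adjusted p = 0.000441) and Bmp4 at 65.5 and 47.4 in ESCs and 99.8 and 131 in TSCs (log2 fold change -1.03 ± 0.22, adjusted p = 0.0109). The activin subunit gene Inhba was in the TSC table alone, at 537 and 58.8 TPM, and its level in replicate 1 was several-fold above that in replicate 2. Smad3, which carries the Nodal and activin signal, was at 1.71 and 1.76 in ESCs and 15.9 and 12.6 in TSCs (log2 fold change -2.71 ± 0.20, adjusted p = 0.000379). The receptor genes Acvr1b and Acvr2b had log2 fold changes of -0.86 ± 0.17 and 0.63 ± 0.21, and both were called. The BMP targets of the Id family were divided, with Id1 at 875 and 864 in ESCs and 203 and 109 in TSCs (log2 fold change 2.54 ± 0.30, adjusted p = 0.00141) and Id2 at 165 and 158 in ESCs and 679 and 685 in TSCs (log2 fold change -2.07 ± 0.12, adjusted p = 0.000199).

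In the Wnt pathway, 8 of 26 genes (30.8%) were higher in ESCs, 13 (50%) were higher in TSCs (all genes 26.5% and 33.1%) and 5 were not called, with a median of -0.61. The Wnt ligands tested were all on the TSC side. Wnt7b was at 2.81 and 1.56 in ESCs and 97.2 and 102 in TSCs (log2 fold change -5.26 ± 0.26, adjusted p = 0.000143), Wnt6 at 1.58 and 1.24 in ESCs and 19.25 and 14.3 in TSCs (log2 fold change -3.17 ± 0.23, adjusted p = 0.000358) and Wnt11 at 0.638 and 0.362 in ESCs and 14.9 and 6.202 in TSCs (log2 fold change -3.36 ± 0.43, adjusted p = 0.00187). Wnt3, Wnt4 and Wnt5a were called higher in TSCs too, Wnt5a at 2.03 and 2.97 in ESCs and 59.1 and 7.86 in TSCs, while Wnt8a (3.08 and 4.89 TPM) was in the ESC table alone. The acyltransferase Porcn, which Wnt secretion needs, went the other way, at 17.6 and 15.1 in ESCs and 1.92 and 1.23 in TSCs (log2 fold change 3.04 ± 0.24, adjusted p = 0.000438). Receptors and nuclear factors were divided. Fzd10 was at 96.6 and 97.0 in ESCs and 19.0 and 13.6 in TSCs (log2 fold change 2.55 ± 0.19, adjusted p = 0.000383) and Fzd1 at 4.74 and 2.17 in ESCs and 81.0 and 42.3 in TSCs (log2 fold change -3.98 ± 0.44, adjusted p = 0.00121). Lef1 was at 3.18 and 3.33 in ESCs and 0.362 and 0.0624 in TSCs (log2 fold change 2.43 ± 0.26, adjusted p = 0.00106), and Tcf7 at 19.14 and 21.8 in ESCs and 65.3 and 67.4 in TSCs (log2 fold change -1.67 ± 0.14, adjusted p = 0.000539). Ctnnb1 (β-catenin) was at 288 and 266 in ESCs and 299 and 273 in TSCs and was not called. The antagonist Sfrp1 was at 18.9 and 16.02 in ESCs and 3.50 and 2.67 in TSCs (log2 fold change 2.33 ± 0.21, adjusted p = 0.000652), and Dkk1 was in the TSC table alone, at 15.2 and 28.2 TPM.

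Genes of the DNA methylation list, which holds methyltransferases, Tet enzymes, readers and corepressors, were mostly higher in ESCs. Of 16 tested, 11 (68.75%) were higher in ESCs, 3 (18.75%) in TSCs (all genes 26.5% and 33.1%) and 2 were not called, with a median of 1.16. Dnmt3l, the cofactor of de novo methylation, was at 366 and 342 in ESCs and 3.76 and 3.77 in TSCs (log2 fold change 6.38 ± 0.13, adjusted p = 7.81e-05). The TSC replicates were nearly equal and both ESC libraries were far above them. The methyltransferases differed less, Dnmt3b at 233 and 241 in ESCs and 90.8 and 103 in TSCs (log2 fold change 1.29 ± 0.13, adjusted p = 0.000884), Dnmt3a at 17.9 and 20.01 in ESCs and 9.39 and 11.1 in TSCs (log2 fold change 0.86 ± 0.18, adjusted p = 0.00941) and the maintenance enzyme Dnmt1 at 126 and 109.9 in ESCs and 61.0 and 78.0 in TSCs (log2 fold change 0.76 ± 0.17, adjusted p = 0.0125).

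The Tet dioxygenases, which oxidise methylcytosine, were divided. Tet1 was at 83.9 and 81.6 in ESCs and 1.16 and 1.38 in TSCs (log2 fold change 5.56 ± 0.17, adjusted p = 9.76e-05), and Tet2 at 37.4 and 31.7 in ESCs and 3.30 and 3.30 in TSCs (log2 fold change 3.20 ± 0.18, adjusted p = 0.000183). Tet3 was in the opposite direction, at 2.16 and 2.28 in ESCs and 5.08 and 5.33 in TSCs (log2 fold change -1.07 ± 0.18, adjusted p = 0.00492). Trim28, the corepressor of KRAB zinc finger proteins, was at 1408 and 1478 in ESCs and 204 and 196 in TSCs (log2 fold change 2.85 ± 0.12, adjusted p = 0.000111), and its imprint-protecting partner Zfp57 at 629.7 and 547 in ESCs and 79.996 and 89.1 in TSCs (log2 fold change 2.79 ± 0.14, adjusted p = 0.000145). Among readers of methylated DNA, Mbd2 was at 4.28 and 4.49 in ESCs and 13.1 and 13.9 in TSCs (log2 fold change -1.51 ± 0.17, adjusted p = 0.00131).

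Some Polycomb paralogs differed in opposite directions. Of 26 tested, 11 (42.3%) were higher in ESCs, 7 (26.9%) in TSCs (all genes 26.5% and 33.1%) and 8 were not called, with a median of 0.43. Among chromobox subunits, Cbx7 was higher in ESCs, at 70.5 and 64.7 in ESCs and 24.8 and 36.2 in TSCs (log2 fold change 1.16 ± 0.21, adjusted p = 0.00620). Cbx8 was higher in TSCs, at 2.61 and 1.46 in ESCs and 40.3 and 40.9 in TSCs (log2 fold change -4.06 ± 0.26, adjusted p = 0.000271). Cbx2 and Cbx6 were on the TSC side too, with log2 fold changes of -1.63 ± 0.13 and -0.88 ± 0.17.

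The polyhomeotic subunits divided in the same manner, Phc1 at 379 and 357 in ESCs and 29.6 and 34.4 in TSCs (log2 fold change 3.51 ± 0.14, adjusted p = 0.000111) and Phc2 at 3.43 and 3.63 in ESCs and 25.6 and 23.2 in TSCs (log2 fold change -2.63 ± 0.17, adjusted p = 0.000276). So did the Polycomb-like proteins, Mtf2 at 93.8 and 95.9 in ESCs and 12.2 and 11.8 in TSCs (log2 fold change 2.93 ± 0.13, adjusted p = 0.000114) and Phf19 at 9.41 and 6.38 in ESCs and 29.2 and 31.7 in TSCs (log2 fold change -1.91 ± 0.22, adjusted p = 0.00145). In each of these pairs one member was higher in ESCs and the other in TSCs. No library overlapped between the cell types, as was so for 84.6% of all genes tested. Other paralogs did not divide so, as Pcgf2 and Pcgf6 were both higher in ESCs and neither Ring1 nor Rnf2 was called. Among other accessory subunits of the methyltransferase complex, Jarid2 was higher in ESCs, at 63.96 and 61.3 in ESCs and 11.3 and 8.30 in TSCs (log2 fold change 2.63 ± 0.19, adjusted p = 0.000351), as was Epop, at 4038 and 4263 in ESCs and 615 and 817 in TSCs (log2 fold change 2.55 ± 0.18, adjusted p = 0.000350). Phf1, a further Polycomb-like protein beside Mtf2 and Phf19, was higher in TSCs, with a log2 fold change of -0.86 ± 0.15. Aebp2 was not called, at 0.29 ± 0.15. The catalytic and core subunits differed less. Ezh2 was at 35.9 and 37.2 in ESCs and 29.0 and 25.5 in TSCs and Suz12 at 92.4 and 92.9 in ESCs and 65.3 and 70.7 in TSCs, and neither passed the fold threshold, while Eed was at 170.2 and 175 in ESCs and 42.0 and 34.0 in TSCs (log2 fold change 2.18 ± 0.15, adjusted p = 0.000319).

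Germline genes were mostly higher in ESCs, many of them at a low level per gene span. That level need not mean few reads, as Tdrd12 had 2516 and 4191 reads in ESCs. Of 19 tested, 13 (68.4%) were higher in ESCs, 2 (10.5%) in TSCs (all genes 26.5% and 33.1%) and 4 were not called. The median was 1.64, and a further 5 were in the ESC table alone. Tdrd12, of the piRNA pathway, was at 11.7 and 13.9 in ESCs and 0.0173 and 0.0199 in TSCs (log2 fold change 4.68 ± 0.19, adjusted p = 0.000111). Syce1, of the synaptonemal complex, was at 25.5 and 17.6 in ESCs and 0.614 and 0.797 in TSCs (log2 fold change 4.17 ± 0.25, adjusted p = 0.000220). Zcwpw1 was at 14.7 and 13.3 in ESCs and 0.519 and 0.737 in TSCs (log2 fold change 3.69 ± 0.20, adjusted p = 0.000184) and Mael, another piRNA factor, at 5.78 and 5.43 in ESCs and 0.126 and 0.124 in TSCs (log2 fold change 3.29 ± 0.18, adjusted p = 0.000181). The TSC libraries were below 1 TPM in each of these. Tex19.1, a germline gene also needed in placenta, went the other way, at 509.6 and 469.6 in ESCs and 1160.0 and 990.0 in TSCs (log2 fold change -1.13 ± 0.14, adjusted p = 0.00190), as did Taf7l, at 2.33 and 1.83 in ESCs and 6.23 and 6.86 in TSCs (log2 fold change -1.45 ± 0.20, adjusted p = 0.00250).

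Of 31 imprinted genes tested, 8 (25.8%) were higher in ESCs, 12 (38.7%) were higher in TSCs and 11 were not called, shares near those of all genes tested (26.5% and 33.1%), with a median of -0.08. Igf2, the paternally expressed growth factor of the placenta, was at 1.56 and 1.78 in ESCs and 1334 and 2156 in TSCs (log2 fold change -9.61 ± 0.25, adjusted p = 8.62e-05). Sfmbt2 was at 6.41 and 5.87 in ESCs and 35.7 and 42.3 in TSCs (log2 fold change -2.57 ± 0.17, adjusted p = 0.000288), and Cdkn1c at 138 and 206 in ESCs and 869 and 2048 in TSCs (log2 fold change -2.98 ± 0.43, adjusted p = 0.00290). Cdkn1c encodes the CDK inhibitor p57 and Sfmbt2 a Polycomb-like repressor of the placenta. On the ESC side were Snrpn at 5.83 and 6.53 in ESCs and 0.383 and 0.485 in TSCs (log2 fold change 2.84 ± 0.19, adjusted p = 0.000292), Zdbf2 at 32.3 and 35.6 in ESCs and 6.62 and 5.16 in TSCs (log2 fold change 2.44 ± 0.19, adjusted p = 0.000411) and Impact at 55.7 and 56.4 in ESCs and 17.9 and 8.59 in TSCs (log2 fold change 2.13 ± 0.34, adjusted p = 0.00403). Phlda2, the placental growth regulator beside Cdkn1c, was at 285 and 402 in ESCs and 196 and 399 in TSCs and was not called.

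The list of D cyclins, their kinases and CDK inhibitors also holds other cell cycle genes, such as Ccne1 and Gmnn. Of 20 tested, 7 (35%) were higher in ESCs, 8 (40.0%) in TSCs (all genes 26.5% and 33.1%) and 5 were not called. The median was -0.07. The inhibitors were mostly on the TSC side. Cdkn2b was at 3.92 and 4.46 in ESCs and 105 and 49.0 in TSCs (log2 fold change -3.95 ± 0.37, adjusted p = 0.000726), Cdkn2a at 2.51 and 2.88 in ESCs and 33.6 and 23.1 in TSCs (log2 fold change -3.15 ± 0.24, adjusted p = 0.000386) and Cdkn1a at 42.7 and 39.9 in ESCs and 366 and 195 in TSCs (log2 fold change -2.68 ± 0.30, adjusted p = 0.00130). In each, TSC replicate 1 was the higher TSC library, and the lower one was still above both ESC libraries. On the ESC side, Cdk4 was at 1536 and 1346 in ESCs and 646 and 672 in TSCs (log2 fold change 1.13 ± 0.14, adjusted p = 0.00169) and cyclin E1 (Ccne1) at 455 and 439 in ESCs and 201 and 262 in TSCs (log2 fold change 0.96 ± 0.17, adjusted p = 0.00521). Cyclin D1 (Ccnd1) was at 267 and 245 in ESCs and 345 and 149.9 in TSCs and was not called.

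Of primitive endoderm markers, 4 of 17 (23.5%) were higher in ESCs, 11 (64.7%) were higher in TSCs (all genes 26.5% and 33.1%) and 2 were not called, with a median of -1.50. The defining factors were low in both cell types. Gata4 was at 0.286 and 0.303 in ESCs and 1.17 and 1.321 in TSCs and Gata6 at 0.420 and 0.298 in ESCs and 3.40 and 1.92 in TSCs, both called higher in TSCs, and Sox17 was in the ESC table alone, at 1.09 and 0.768 TPM. Sox7 was at 10.04 and 6.41 in ESCs and 2.18 and 1.86 in TSCs (log2 fold change 1.76 ± 0.26, adjusted p = 0.00324). The large differences of this list were in basement membrane and receptor genes, with Col4a2 at 1.60 and 1.12 in ESCs and 105 and 119 in TSCs (log2 fold change -5.93 ± 0.20, adjusted p = 0.000101), Col4a1 at 5.46 and 4.84 in ESCs and 209 and 234 in TSCs (log2 fold change -5.30 ± 0.15, adjusted p = 9.42e-05) and Pth1r at 0.448 and 0.689 in ESCs and 36.6 and 25.9 in TSCs (log2 fold change -4.88 ± 0.25, adjusted p = 0.000161). Lama1, a laminin chain, was higher in ESCs, at 14.9 and 12.6 in ESCs and 0.383 and 0.499 in TSCs (log2 fold change 3.92 ± 0.20, adjusted p = 0.000156).

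Of markers of the primitive streak and other early lineages, 4 of 13 (30.8%) were higher in ESCs, 6 (46.2%) were higher in TSCs (all genes 26.5% and 33.1%) and 3 were not called, with a median of -0.60, and of -1.06 without TSC replicate 2. T (brachyury), the T-box factor of the streak, was at 4.21 and 3.49 in ESCs and 0.551 and 0.914 in TSCs (log2 fold change 1.83 ± 0.23, adjusted p = 0.00187). Pax6, a paired-box factor of neural tissue, was at 7.73 and 6.55 in ESCs and 1.05 and 1.03 in TSCs (log2 fold change 2.31 ± 0.19, adjusted p = 0.000517). Evx1 (12.4 and 16.7 TPM), Neurog3 (15.7 and 15.02) and Sox1 (5.90 and 5.02) were in the ESC table alone.

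Fibroblast markers were higher in TSCs and differed widely between the TSC replicates. Of 21 tested, 17 (81.0%) were called higher in TSCs and 1 (Fbln1, 4.76%) in ESCs (all genes 33.1% and 26.5%). The median was -3.37, and 9 more were in the TSC table alone. Without TSC replicate 1, 17 were higher in TSCs and 2 in ESCs, with a median of -2.61. Fbln1, at 6.42 and 5.41 in ESCs and 4.36 and 3.18 in TSCs, was not called without either ESC replicate or without TSC replicate 2. Col1a1, a chain of type I collagen, was at 1.60 and 1.55 in ESCs and 862 and 103 in TSCs (log2 fold change -7.17 ± 0.95, adjusted p = 0.00212). Its partner Col1a2 was at 0.105 and 0.223 in ESCs and 295 and 32.8 in TSCs (log2 fold change -7.23 ± 0.98, adjusted p = 0.00233). Each was several-fold higher in TSC replicate 1 than in replicate 2, and replicate 2 was still far above both ESC libraries. Fbln2 (fibulin 2) was at 0.181 and 0.242 in ESCs and 274 and 75.5 in TSCs (log2 fold change -7.67 ± 0.59, adjusted p = 0.000413), and Bgn (biglycan) at 0.624 and 0.147 in ESCs and 1017 and 231 in TSCs (log2 fold change -9.15 ± 0.71, adjusted p = 0.000424).

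The defining markers Lum, Dcn, Postn and Prrx1 were in the TSC table alone, at 3.03 and 0.144, 3.05 and 0.353, 48.2 and 6.53 and 24.2 and 4.89 TPM. The markers that were not called were Mfap5, Ddr2 and Lrrc15. Across all 6 TSC libraries the summed level of the list ran from 751 to 5048, and across the 6 ESC libraries from 63.2 to 96.2, so the summed level did not overlap between the cell types. The TSCs were grown on feeders and the ESCs were not, and the part of feeder RNA in the genes called higher in TSCs was not tested.

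**Figure D4:**
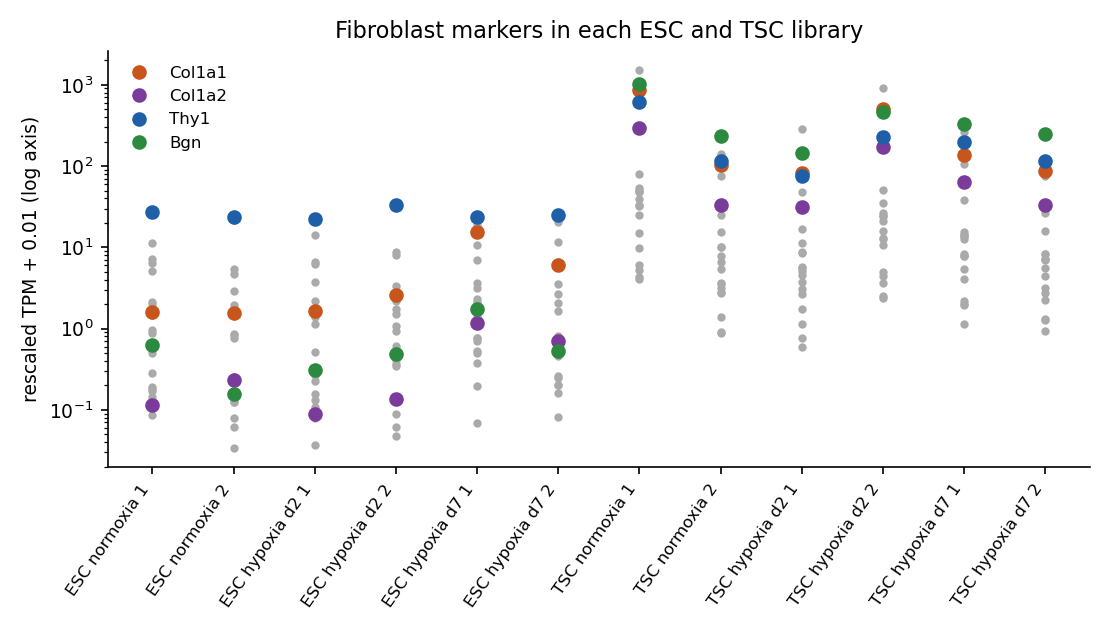
Level of the 21 tested fibroblast markers in each ESC and TSC library, in rescaled TPM plus 0.01 on a log axis, with a point per gene and 4 genes in colour. TSC normoxia replicate 1 holds the highest levels (Col1a1 862 and Bgn 1017 TPM), and the ESC libraries hold the lowest.

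The largest differences overall were taken as the 10 called genes with the largest fold changes in each direction whose mean was at least 5 TPM in the higher cell type. Higher in ESCs, beside Dppa5a, Nanog and Lefty2, were Foxd3, a forkhead factor needed for pluripotency, at 549 and 699 in ESCs and 2.94 and 0.235 in TSCs (log2 fold change 8.61 ± 0.70, adjusted p = 0.000491), and Slc7a3, a transporter of cationic amino acids, at 453 and 421 in ESCs and 1.87 and 0.882 in TSCs (log2 fold change 7.92 ± 0.28, adjusted p = 0.000102). Hsd17b14, a steroid dehydrogenase, was at 284 and 244 in ESCs and 0.507 and 0.744 in TSCs (log2 fold change 7.88 ± 0.19, adjusted p = 7.81e-05). Gsta4, Dusp27 and Gng3 had log2 fold changes of 6.71 ± 0.29, 6.53 ± 0.31 and 6.47 ± 0.52. The TSC libraries were below 4 TPM in every gene named here.

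Higher in TSCs, beside Hand1, Igf2, Krt7, Krt18, Bgn and Mmp9, were Csf1, the macrophage growth factor, at 0.165 and 0.538 in ESCs and 756 and 299 in TSCs (log2 fold change -9.16 ± 0.48, adjusted p = 0.000163), and Tinagl1, a matrix protein, at 3.49 and 1.45 in ESCs and 984 and 1024 in TSCs (log2 fold change -8.49 ± 0.34, adjusted p = 0.000111). The hormone gene Sct (secretin) was at 0.798 and 3.40 in ESCs and 744 and 806 in TSCs (log2 fold change -8.43 ± 0.50, adjusted p = 0.000222). The TSC replicates were close in Tinagl1 and Sct, and replicate 1 was more than 2-fold above replicate 2 in Csf1 and Bgn.

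Genes held by a single table numbered 1081 for ESCs and 1021 for TSCs. The highest in the ESC table after Pou5f1 were Trh, the precursor of thyrotropin-releasing hormone, at 978 and 1453 TPM as deposited, Rbmxl2 at 824 and 1444, Rpl10l at 958 and 917, Tdgf1 and Ifitm1 at 659 and 799. Tdh, Gdf3, Mymx (227 and 203) and D1Pas1 (238 and 186) followed. Rpl10l and D1Pas1 are retrogene copies of widely expressed genes, and reads may be shared with these. The highest in the TSC table were Lox at 1247 and 96.7, Inhba, Lyz2 at 369 and 6.33 and Nppb, the natriuretic peptide B gene, at 157 and 196. Lce1h (219 and 27.1), Sprr2k (206 and 0.811), Cavin2 (169 and 16.4), Ccl2 (95.7 and 85.9), Isg15 (17.1 and 158) and Foxs1 (159 and 15.8) followed. For Lox, Inhba, Lyz2, Lce1h, Sprr2k, Cavin2 and Foxs1 the first TSC library was well above the second, by far the most in Sprr2k and Lyz2. Fibroblast markers such as Col1a1 had the same direction, and a shared source was not tested. Nppb and Ccl2 were close in both libraries, and Isg15 was higher in the second.

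The same genes were then followed in the hypoxic libraries, which the normoxic comparison did not use. Of the genes called higher in ESCs, 2758 (88.4%) were higher in both ESC libraries than in both TSC libraries at day 2 of hypoxia, and 3045 (97.6%) at day 7. Of those called higher in TSCs, 3751 (96.2%) and 3555 (91.2%) lay on the TSC side without overlap. Over all genes tested, the libraries did not overlap in 80.6% at day 2 and 83.1% at day 7. In all 12 libraries together, 2600 genes (83.3%) and 3241 genes (83.1%) kept their side without overlap, against 56.8% of all genes tested. These 12 include the 4 normoxic libraries that made the calls, where no called gene overlapped. The gap to all genes was thus partly fixed in advance.

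Among the defining genes, Nanog, Klf4, Esrrb, Dnmt3l, Cdx2, Gata3, Tfap2c and Krt18 kept their side in every library. Pou5f1, Fgf4 and Elf5 have no level given for the other cell type and could not be followed so. Nanog was between 764 and 1041 TPM in the ESC libraries and between 0.476 and 4.69 in the TSC libraries. Cdx2 was between 1.29 and 4.25 in ESCs and between 35.3 and 169.7 in TSCs, where the lowest levels were those of day 7. Sox2 and Esrrb, the factors shared between the cell types, were lowest in TSCs at day 7, at 172 and 129 and at 8.93 and 5.66.

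Genes of the Y-linked list were detected in ESCs and close to zero in TSCs. Ddx3y was at 54.7 and 47.2 in ESCs and 0.917 and 1.20 in TSCs (log2 fold change 5.04 ± 0.20, adjusted p = 0.000111), Eif2s3y at 61.5 and 53.4 in ESCs and 1.07 and 1.01 in TSCs (log2 fold change 5.23 ± 0.18, adjusted p = 0.000101) and Uty at 3.43 and 3.06 in ESCs and 0.0637 and 0.0257 in TSCs (log2 fold change 2.78 ± 0.18, adjusted p = 0.000276). All 3 tested members of the Y-linked list were thus called higher in ESCs (all genes 26.5%), and their low TSC levels were similar in both replicates. Gm47283, which the annotation also places on the Y chromosome and which is not in the list, was tested and not called, with a log2 fold change of 0.51. E14 is a male line, and the labels give no sex for the TSCs.

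Autosomes differed little in their median, with an exception in chromosome 11. Its 1006 tested genes had a median log2 fold change of -0.52, against -0.21 to 0.11 for the other 18 autosomes. Of these genes, 145 (14.4%) were higher in ESCs and 469 (46.6%) in TSCs, where the other autosomes had 20.8% to 31.6% and 26.8% to 36.9%. Chromosome 11 had the lowest autosomal median in 4 of 4 pairs of an ESC and a TSC library, from -0.57 to -0.46. The shift ran along the chromosome, with a median below 0 in 12 of 12 windows of 10 Mb that held at least 20 tested genes, from -0.75 to -0.20. At day 2 of hypoxia the median of chromosome 11 was -0.59 (other autosomes -0.31 to 0.02), and at day 7 it was -0.36 (other autosomes 0.05 to 0.35).

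XEN cells served as a second reference, an alternative added after the data had been seen. Over 9143 genes held by the tables of all cell types at a mean over 1 TPM in each, with each difference centred on its median, chromosome 11 was at -0.46 for ESCs against TSCs, 0.08 for ESCs against XEN cells and 0.51 for TSCs against XEN cells. The other autosomes lay between -0.60 and 0.20 for ESCs against XEN cells and between -0.61 and 0.12 for TSCs against XEN cells, so chromosome 11 was within their range in the former and above it in the latter. Hand1, Cbx2, Cbx8, Krt19, Dlx3, Col1a1, Lif and Wnt3 lie on it, and the part of the shift in their differences was not tested. Also on it are Suz12 and Ezh1, which were not called, with log2 fold changes of 0.44 ± 0.12 and -0.55 ± 0.16.

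**Figure D5:**
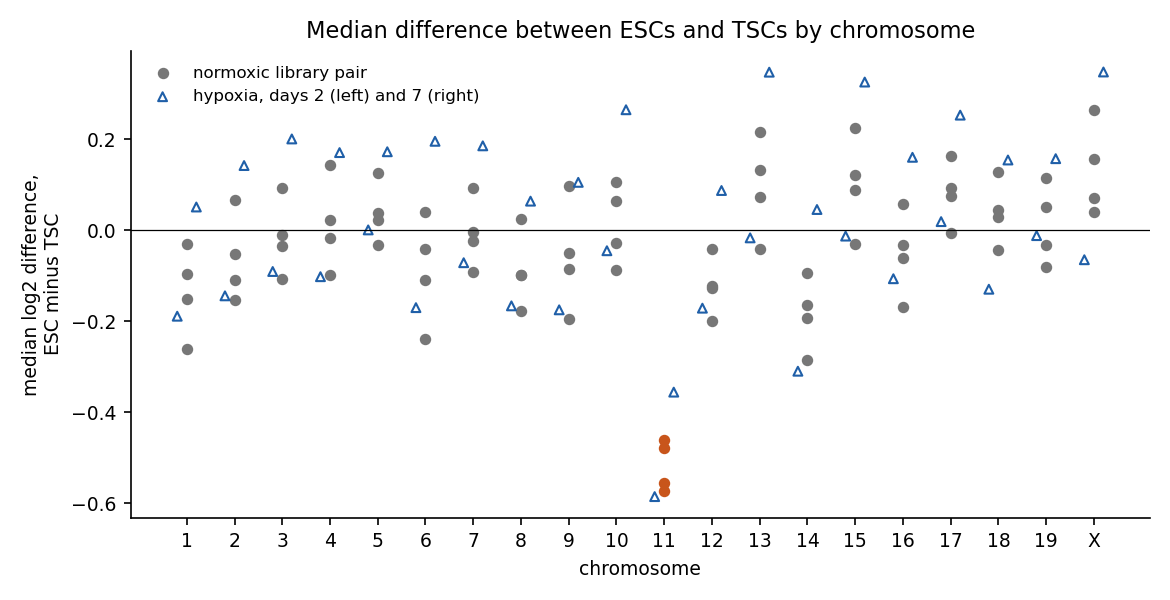
Median log2 difference, ESC minus TSC, of the tested genes on each chromosome, with a circle for each of the 4 pairs of normoxic libraries and triangles for the differences between group means at days 2 and 7 of hypoxia. Chromosome 11 (orange) lies between -0.57 and -0.46 in normoxia, below all other chromosomes.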

How the data were processed

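Per the labels and the methods of the study, 2 biological replicates were collected per condition, and total RNA libraries were made with the KAPA RNA HyperPrep kit. The authors trimmed reads with cutadapt 2.4, aligned them to mm10 with STAR 2.7.5a, counted them on genes with featureCounts, used edgeR 3.26.8 to drop genes that did not exceed 0.4 CPM in 2 or more of the 6 libraries, restricted them to protein-coding genes, and deposited TPM in a table per cell type. The D0 columns were taken as the normoxic libraries. TPM times gene span (gene end minus start, GENCODE vM21) fell on whole reads, within 0.05, for 98.7% to 98.9% of values, so the authors' length is the whole gene, introns included.

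Tables were joined on gene identifiers, and each column was rescaled to 1000000 over shared genes, which removes the scale of each table only if the shared genes hold like shares of the RNA. Genes above 0.4 in at least 2 of 4 libraries were tested with limma 3.58.1 in R 4.3.3 on log2(TPM + 0.5), with a mean-variance trend, two-sided, with Benjamini-Hochberg adjustment over all genes tested. The study's own test on counts was not used. An exact permutation test over 2 against 2 libraries cannot go below p = 0.333, so none was run. On data simulated for this comparison with an overdispersion of 0.01, limma recovered 93.9% of 2-fold changes over 11760 genes and 100% of 4-fold changes over 11763. At an overdispersion of 0.05 it recovered 9.95% of 2-fold changes over 11757 genes. False calls numbered 0 to 29 per simulation. At most 197 genes were changed in a simulation, while 7018 were called in the data. The overdispersions were set and not fitted to these libraries. The share of true differences recovered in the data therefore cannot be read from these values. Replicates share only a number: deviations of same-numbered libraries correlated at -0.08 across genes.

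The members, gene lists and alternatives were chosen with earlier results of these data known, and the lists are described by counts and medians with no test. Genes named are defining markers, at most the 4 largest fold changes per list and direction, the 10 largest overall in each direction, and the 10 highest in a single table. Other list members named were chosen after their values were seen. Some genes that the rule covers are not reported here, and they stay in the counts and medians. Alternatives were pseudocounts of 0.1 and 1, other filters, median-ratio scaling, no rescaling, voom on recovered reads, a replicate block, 12 libraries in the fit, no trend, a stricter threshold and each library left out. XEN cells were used only for chromosomes. The motif shares planned beyond the octamer were not computed, since too few genes had a promoter window. Figures were drawn with matplotlib 3.10.9 in Python 3.11.15.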

Additional observations from a re-analysis of the deposited data

Results flagged for a closer look

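For 14 of the genes named by rule, the difference between ESCs and TSCs was not the same at day 7 of hypoxia as in normoxia, by an interaction term in the limma fit to all 12 libraries at an adjusted p at or under 0.1. Over all 11781 genes this was so for 127 genes at day 7 and for 19 at day 2. Each value below is the ESC minus TSC log2 difference at day 7 minus that in normoxia, so a positive value is a shift toward ESCs.

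In trophoblast and shared factors the values were 2.87 for Cdx2 (adjusted p = 0.0221), 2.53 for Eomes (0.0196), 1.73 for Hand1 (0.0896), 2.04 for Sox2 (0.0196), 1.79 for Esrrb (0.0324) and 2.64 for Nr0b1 (0.0196). Cdx2 went from 141 and 125 TPM to 40.4 and 35.3 in TSCs and from 1.29 and 2.11 to 4.25 and 3.81 in ESCs. Sox2 went from 665 and 717 to 172 and 129 in TSCs and from 2842 and 3481 to 2702 and 2911 in ESCs. Hand1 differed otherwise, going from 2.18 and 2.10 to 12.8 and 8.42 in ESCs, with 8716 and 14246 and then 14825 and 12923 in TSCs.

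In signalling and chromatin genes the values were 2.20 for Wnt6 (0.0588), 2.11 for Socs2 (0.0196), 1.40 for Smad3 (0.0940), 1.38 for Etv5 (0.0729) and 1.65 for Phf19 (0.0733). The value was 1.17 for Col4a1 (0.0634) and 3.34 for T (0.00697), and it was -1.41 for Mael (0.0496), the only one of the 14 that shifted toward TSCs. T was at 4.21 and 3.49 TPM in normoxic ESCs and 19.3 and 15.96 at day 7, and in TSCs it was at 0.551 and 0.914 and then listed at 0 in both libraries. The summed fibroblast markers of TSCs at day 7 were 1249.8 and 763 TPM, against 5048 and 796 in normoxia, and their part in these differences was not tested.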

How the results depend on the processing

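The number of genes higher in ESCs was 3120 and ranged from 2974 to 3518 over the alternatives with all 4 libraries at the same threshold, and that of genes higher in TSCs was 3898 and ranged from 3711 to 3985. Leaving out a library gave 2314 to 3358 and 2935 to 4249, where the lone library of a cell type is assumed to vary like the other cell type's replicates. With a fold change over 4 and an adjusted p of 0.01 or less they were 500 and 1205. The libraries share only a replicate number. With the replicate block, 3160 and 3961 genes were called, of which 3120 and 3894 were also called without it. Of 1887 values of 126 named genes under the alternatives, 1830 kept their call, 57 lost it and 0 changed direction. With voom on recovered reads, only Syna lost its call. Outside the stricter threshold, 26 calls in 13 genes were lost: in Fgfr2 with a pseudocount of 1, and, among others, in Apoe, Cdk6, Dusp4, Fbln1, Fgf5, Id4, Lamc1, Mesp2, Nes, Socs3 and Syna mostly when a library was left out.

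Medians of lists near 0 had no stable sign. That of LIF and STAT3 signalling was -0.04, and 0.0284 with median-ratio scaling, 0.0397 with voom and from -0.19 to 0.11 with a library left out (0.0578 without ESC replicate 2, 0.111 without TSC replicate 1). That of imprinted genes was -0.08, and 0.0021 with voom and from -0.41 to 0.0241 with a library left out. With voom on recovered reads, medians were -3.24 for trophoblast stem cell factors, -3.76 for trophoblast differentiation, -0.55 for the Wnt pathway, 1.25 for DNA methylation, 0.51 for Polycomb, 2.44 for germline genes, -2.05 for primitive endoderm, 5.85 for Y-linked genes and -0.45 for chromosome 11. With median-ratio scaling they were -0.54 for Wnt, 1.23 for DNA methylation, 0.50 for Polycomb and -0.45 for chromosome 11. With a pseudocount of 0.1 they were -3.18 for trophoblast stem cell factors, -3.84 for trophoblast differentiation, 2.11 for germline and 5.47 for Y-linked genes, and with 1 they were -0.51 for Wnt, 1.31 for germline and 4.66 for Y-linked genes. With no filter they were -0.51 for Wnt and 3.91 for Y-linked genes, and with the stricter filter -3.02 for trophoblast stem cell factors, -0.41 for Wnt and -1.13 for primitive streak markers. With a library left out, the ranges were -3.02 to -2.74 for trophoblast stem cell factors, -3.32 to -2.21 for trophoblast differentiation, -2.20 to -1.93 for keratins, -0.74 to -0.48 for Wnt, 1.02 to 1.18 for DNA methylation, 1.41 to 1.79 for germline, -0.42 to -0.0106 for D cyclins and inhibitors, -4.58 to -2.61 for fibroblast markers, -1.99 to -1.197 for primitive endoderm and -0.58 to -0.46 for chromosome 11. In hypoxia chromosome 11 was at -0.59 and -0.36 at days 2 and 7. These medians have no test and the cause of their moves was not tested. The normoxic libraries held 37760283 to 50296395 recovered reads, and a gene at 0.4 TPM rests on few reads unless it is long.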
